A study of Canis lupus familiaris with 4 samples.

Results

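The genes described here encode transcription factors of the SOX, FOX, GATA, KLF and SP families. Members were picked by gene symbol, and 31 of the 11277 genes in the count tables carried such a symbol, namely 6 SOX, 11 FOX, 1 GATA, 10 KLF and 3 SP genes. RNA-seq was performed on 4 libraries, of which T1 and T2 came from mammary ductal carcinoma and C1 and C2 (control) from adjacent non-tumor mammary tissue of the same dogs. All libraries were pools of 3 animals, so that n = 2 refers to pools and single dogs were not measured. The 6 female dogs were not neutered, were aged 5 to 14 years, were of different breeds and had early-stage disease. By the study's account C1 and T1 (pool 1) shared a set of dogs and C2 and T2 (pool 2) shared the other set, and no library came from a dog without a tumor. The comparison of carcinoma with control asked which of these regulators differ between the tumor and the tissue next to it.

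SOX factors bind DNA through an HMG box and act in lineage choice, and SOX9 together with its partners SOX5 and SOX6 drives cartilage formation. FOX factors share the forkhead domain. Among them FOXA1 opens chromatin for steroid hormone receptors in luminal mammary cells, FOXO proteins are the nuclear targets of insulin and growth factor signaling, and FOXI1 is the regulator of ionocytes, epithelial cells rich in mitochondria that move acid and ions. GATA3 is required in mouse for the luminal lineage of the mammary gland. KLF and SP factors bind GC-rich and CACCC sequences through zinc fingers. SP1 and SP3 are used in nearly all cells, whereas KLF4 acts in the maturation of surface epithelia and in vascular endothelium.

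Totals were 35496260 counts in T1 and 3236218 in T2, against 32352002 in C1 and 4027367 in C2, so that relative counting error was larger in the libraries of pool 2. The 31 genes took 0.490% of the counts in T1 and 0.504% in T2, against 0.372% in C1 and 0.428% in C2. Their lowest count in any library was 10, and all 31 passed the filter on low counts. The limit that a count of 0 would allow (3 counts, counting error only) was 0.0858 CPM (counts scaled to the size of the library) in T1 and 0.892 CPM in T2, against 0.102 CPM in C1 and 0.695 CPM in C2. Epithelial markers were present in all 4 libraries. CDH1, which encodes E-cadherin, had 647 CPM in T1 and 567 CPM in T2, against 670 CPM in C1 and 514 CPM in C2. Control also carried striated muscle RNA, with a summed level over 13 measured muscle genes of 49.5 CPM in T1 and 85.7 CPM in T2, against 2092 CPM in C1 and 3266 CPM in C2. In bulk tissue, fewer cells of a type and less RNA per cell cannot be told apart.

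SOX6 and FOXI1 rose in carcinoma, KLF4 and KLF11 fell, and 27 of the 31 genes did not pass the test. A gene was called at an adjusted p under 0.05 (edgeR's quasi-likelihood test, Benjamini-Hochberg adjustment over all 11277 genes) with a change of 1 or more on the log2 scale in either direction. By this rule 12.9% of the family members were called, against 9.86% of all genes (4.62% higher and 5.24% lower). DESeq2 called the same 4 genes, against 10.7% of all genes. At an unadjusted p under 0.05, the rule used for further counts below, 14.6% of all genes were higher and 13.9% were lower, and 8 members lay on each side. With the pool entered as a block, which removes the difference between the sets of dogs, FOXP4 and KLF8 were called as well, making 6 members (3 higher and 3 lower) or 19.4%, against 13.9% of all genes (7.09% higher and 6.83% lower). Both carcinoma libraries lay above both control libraries for 14 members and below them for 11, together 80.6% of the members against 57.6% of all genes (29.6% above and 28% below). Most differences were modest. The absolute log2 fold change was under 0.5 for 14 members, from 0.5 to 1 for 12 and at least 1 for 5, and the share under 0.5 was 45.2% against 64.8% of all genes. The median log2 fold change was 0.69 in the SOX family, 0.37 in the FOX family, −0.29 in the KLF family and −0.34 in the SP genes, beside 0.031 over all genes tested.

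**Figure D1:**
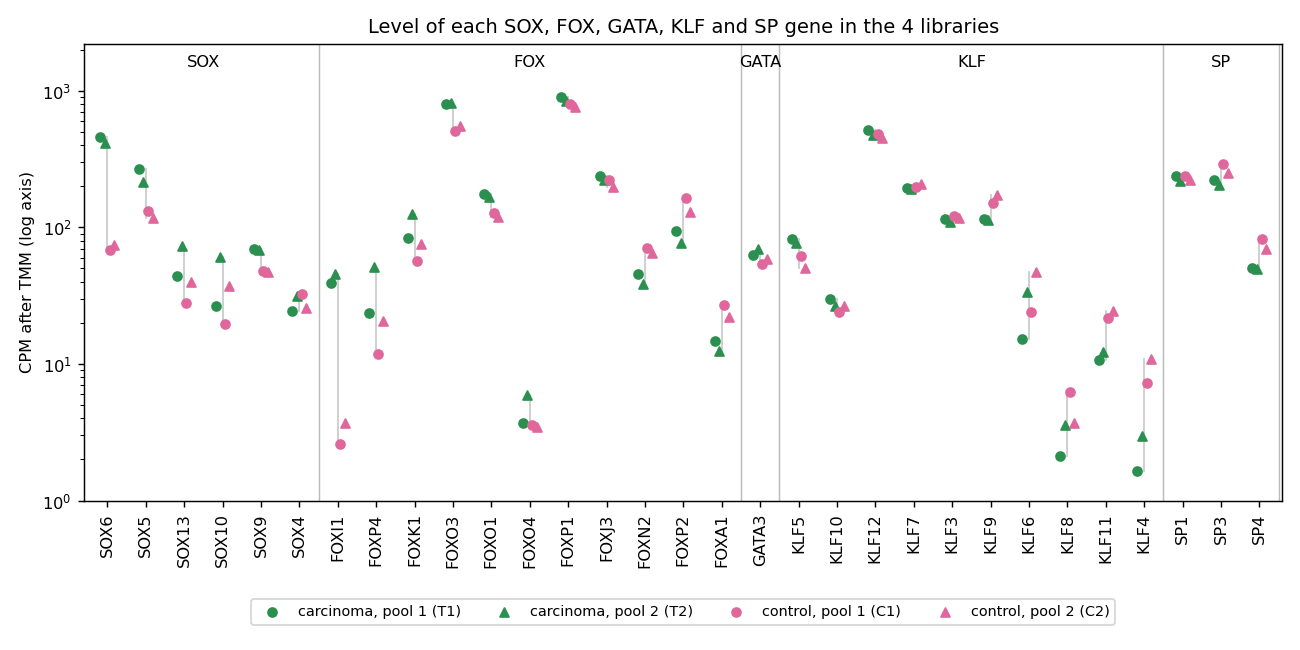
CPM after TMM normalization (log axis) of each of the 31 genes in the 4 libraries, grouped by family, with carcinoma in green and control in pink, circles for pool 1 and triangles for pool 2. The carcinoma points of SOX6 (460 and 417 CPM) and FOXI1 (39.0 and 45.2 CPM) stand far above the control points, and those of KLF4 (1.66 and 2.97 CPM) far below.

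**Figure D2:**
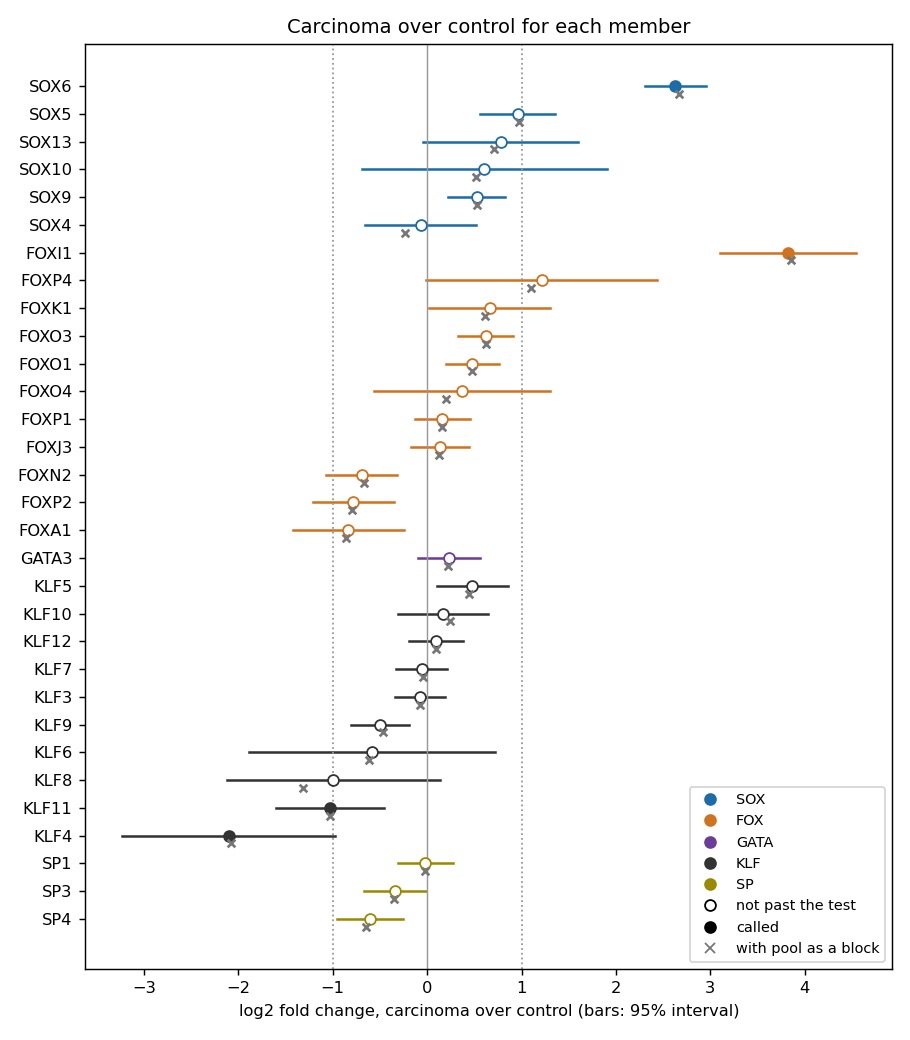
Carcinoma over control as a log2 fold change in all 31 genes, with bars for the 95% interval of the fit without a block, filled circles for called genes and crosses for the value with the pool as a block. FOXI1 (3.82) and SOX6 (2.63) lie to the right of the fold limit and KLF4 (−2.10) to the left, and the intervals of most other genes lie between the dotted limits or cross them.

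SOX6, a factor of chondrocytes that also represses slow-fiber genes in mouse muscle, was the SOX gene that rose. It had 460 CPM in T1 and 417 CPM in T2, against 68.3 CPM in C1 and 73.9 CPM in C2, and the groups lay far apart. Its log2 fold change was 2.63 (standard error, SE, 0.12, 95% interval 2.31 to 2.95, edgeR adjusted p = 0.00182), which placed SOX6 at rank 125 of 11277 by rise. Its call held in all 13 alternative analyses, with values from 2.51 (without T1) to 2.70 (without T2).

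SOX5, the closest relative of SOX6, had a smaller difference in the same direction. It had 268 CPM in T1 and 215 CPM in T2, against 132 CPM in C1 and 117 CPM in C2. All carcinoma values lay above all control values, and the log2 fold change was 0.96 (SE 0.15, edgeR adjusted p = 0.0182), just under the fold limit. Without T2 it was 1.10, and without T1 it was 0.74. The 95% interval of SOX5, 0.56 to 1.35, did not overlap that of SOX6. Within each library the ratio of SOX6 to SOX5 CPM was 1.72 in T1 and 1.94 in T2, against 0.518 in C1 and 0.632 in C2. These ratios compare libraries and do not show which gene had more transcripts. The length given was 0.705 times the RefSeq span, introns included, for SOX6 and 0.398 times for SOX5.

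SOX9, which heads the cartilage program and is also made by mammary epithelial progenitors, had the narrowest groups among the SOX genes. It had 69.2 CPM in T1 and 68.4 CPM in T2, against 48.2 CPM in C1 and 47.3 CPM in C2. The log2 fold change was 0.53 (95% interval 0.23 to 0.83, edgeR adjusted p = 0.0475), past the adjusted p and under the fold limit. A doubling of SOX9 lay outside the interval. SOX9 did not pass the adjusted p by DESeq2 (0.101). By edgeR it did not pass with library totals (0.0652) or RLE normalization (0.0575) in place of TMM. It also did not pass with at least 10 counts in every library (0.0590). Without T1 the log2 fold change of SOX9 was 0.47. With the pool as a block it passed (edgeR adjusted p = 9.07e-10).

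Genes of cartilage matrix stood beside these SOX values. Of 12 measured genes in a chondrocyte and cartilage matrix list, 7 were higher in carcinoma, 5 did not pass and 0 were lower (edgeR, 1 lower at an unadjusted p under 0.05 and 0 called lower by DESeq2). The median log2 fold change of the list was 3.23, and its summed level was 1887 CPM in T1 and 2238 CPM in T2, against 135 CPM in C1 and 146 CPM in C2. COL11A1, which encodes a fibrillar collagen of cartilage, had a log2 fold change of 4.14 (SE 0.12, edgeR adjusted p = 8.91e-04), and ACAN, which encodes aggrecan, one of 7.34 (SE 0.34, adjusted p = 0.00182). HAPLN1, whose protein links aggrecan to hyaluronan, had 4.75 (SE 0.29, adjusted p = 0.00196), and COL2A1, the main collagen of cartilage, had 5.16 (SE 0.49, adjusted p = 0.00478). The SOX values were smaller than those of these matrix genes. The list genes that did not pass went both ways. Their log2 fold changes were 1.44 (COMP), 0.63 (COL9A2), 0.39 (MATN3), 0.13 (PRG4) and −0.71 (COL9A1). The part that cartilage-forming cells had in the SOX6 and SOX5 values was not tested.

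The other SOX genes did not pass the test. SOX13, which shares the group of SOX5 and SOX6, had 43.8 CPM in T1 and 73.5 CPM in T2, against 28.1 CPM in C1 and 40.1 CPM in C2. Its groups were separated by a small gap between T1 and C2, and the log2 fold change was 0.78 (95% interval −0.041 to 1.60, edgeR adjusted p = 0.194). SOX10, a factor of Schwann cells, melanocytes and mammary basal cells, had 26.4 CPM in T1 and 60.4 CPM in T2, against 19.5 CPM in C1 and 37.3 CPM in C2. Here the groups overlapped and the difference between pools was larger than that between tissues (log2 fold change 0.61, edgeR adjusted p = 0.485). SOX4, a factor of progenitor cells, was the only one of the 31 genes whose ratio of carcinoma to control changed sign between the pools, at −0.40 in pool 1 and 0.31 in pool 2 on the log2 scale. The length given for SOX4 was 57875 bases, against a span of 2574 bases in the RefSeq table, so that its row may hold reads from outside the gene and its values are uncertain. Lengths of SOX13 (46382 against 18558 bases), FOXK1 (161254 against 67955 bases), SOX9 (5342 against 3148 bases) and KLF9 (31446 against 22362 bases) also exceeded the RefSeq spans, by less, and the same limit holds for them. SOX10 and SOX4 were described after their values had been seen.

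FOXI1 had the largest rise among the 31 genes. It had 39.0 CPM in T1 and 45.2 CPM in T2, against 2.57 CPM in C1 and 3.71 CPM in C2, which rest on 1362 and 152 counts in carcinoma and on 76 and 16 counts in control. Both carcinoma values lay far above both control values. Its log2 fold change was 3.82 (SE 0.28, 95% interval 3.10 to 4.54, edgeR adjusted p = 0.00267), at rank 38 of 11277 by rise. Within pools the ratio was 15.1 in pool 1 (95% counting interval 12.0 to 19.3) and 12.2 in pool 2 (7.27 to 21.9). FOXI1 was called in all 13 alternative analyses, with values from 3.44 (without C1) to 4.02 (without C2).

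Genes that mark ionocytes, or encode the subunits of the proton pump found in such cells, were mostly higher too. Of 10 measured genes in this list 6 were higher in carcinoma, 1 was lower and 3 did not pass, and the median log2 fold change was 1.85. The summed level was 1195 CPM in T1 and 1249 CPM in T2, against 474 CPM in C1 and 435 CPM in C2, and no gene of the list was at 0 in any library. SLC26A4, which encodes the anion exchanger pendrin, had 594 CPM in T1 and 601 CPM in T2, against 56.9 CPM in C1 and 59.6 CPM in C2 (log2 fold change 3.36, SE 0.12, edgeR adjusted p = 0.00147). ATP6V0A4, a membrane subunit of the proton pump, had 118 CPM in T1 and 123 CPM in T2, against 11.2 CPM in C1 and 9.50 CPM in C2 (log2 fold change 3.51, SE 0.15, adjusted p = 0.00147). TFCP2L1, a transcription factor of epithelial ducts, had a log2 fold change of 1.90 (SE 0.21, adjusted p = 0.00651). These genes thus moved in the direction of FOXI1 in both pools.

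HEPACAM2, an adhesion gene of the same list, went the other way, with 61.6 CPM in T1 and 45.2 CPM in T2, against 255 CPM in C1 and 203 CPM in C2 (log2 fold change −2.09, SE 0.21, edgeR adjusted p = 0.00502). The pump subunit genes ATP6V1G3, ATP6V1B1 and ATP6V1C2 were also higher, while ATP6V0D2, CFTR (the chloride channel gene) and DMRT2 were not called. Of the 14 genes in the list ASCL3, BSND, RHCG and SLC4A9 were not analysed here.

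**Figure D3:**
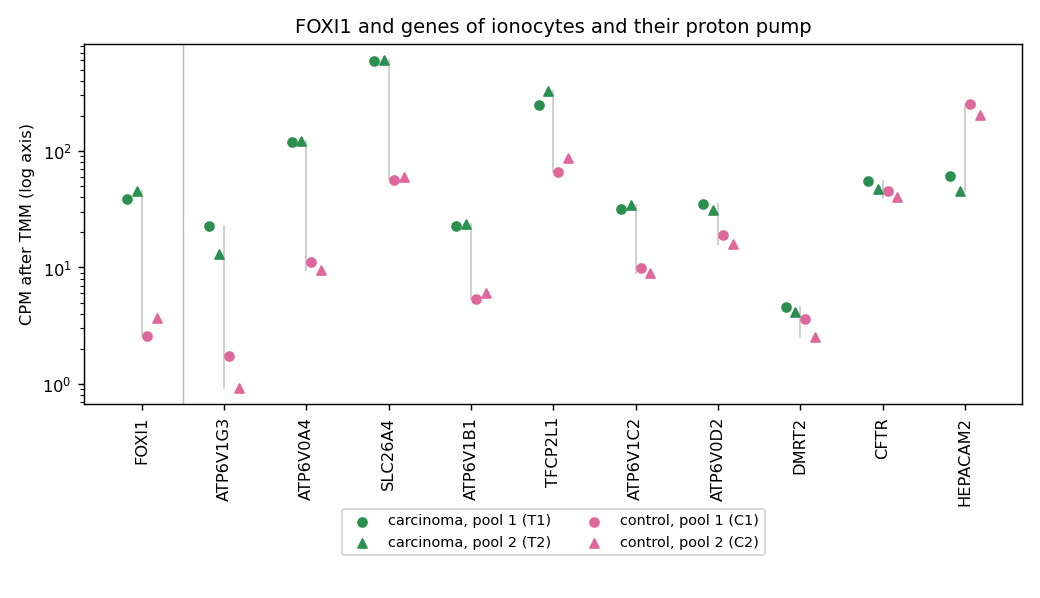
CPM after TMM normalization (log axis) of FOXI1 and of the 10 measured ionocyte and proton pump genes in the 4 libraries, with carcinoma in green and control in pink, circles for pool 1 and triangles for pool 2. FOXI1 and SLC26A4 lie about a decade higher in carcinoma, and HEPACAM2 lies lower in carcinoma (61.6 and 45.2 CPM) than in control (255 and 203 CPM).

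Among the other FOX genes, FOXP4, a repressor known from lung and gut development, differed between pools as much as between tissues. It had 23.7 CPM in T1 and 51.2 CPM in T2, against 11.8 CPM in C1 and 20.6 CPM in C2. The carcinoma values lay above the control values, T1 only slightly above C2. Across the pools the log2 fold change was 1.21 (SE 0.48, 95% interval −0.011 to 2.43, edgeR adjusted p = 0.178) and FOXP4 was not called. With the pool as a block it was 1.10 (adjusted p = 2.19e-17) and was called, as it was without T1 (1.65, adjusted p = 0.0489), whereas without T2 it was 0.59 (adjusted p = 0.562). FOXP2, a relative of FOXP4, had the opposite direction, with 93.5 CPM in T1 and 77.0 CPM in T2, against 163 CPM in C1 and 131 CPM in C2. Its groups did not overlap, and the log2 fold change of −0.78 (95% interval −1.21 to −0.35, edgeR adjusted p = 0.0430) passed the adjusted p but not the fold limit. FOXP1, the remaining measured gene of this group and a regulator of B cell and epithelial development, had a log2 fold change of 0.16 (95% interval −0.13 to 0.45, edgeR adjusted p = 0.422).

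The FOXO genes, which encode the targets of insulin and AKT signaling, all had positive values under the fold limit. FOXO3 had 806 CPM in T1 and 813 CPM in T2, against 504 CPM in C1 and 551 CPM in C2 (log2 fold change 0.62, 95% interval 0.33 to 0.91, edgeR adjusted p = 0.0272). FOXO3, described in full after its values had been seen, passed the adjusted p with groups well apart. FOXO1 had a log2 fold change of 0.48 (95% interval 0.20 to 0.76, edgeR adjusted p = 0.0516). FOXO4 had 0.37 (95% interval −0.56 to 1.30, edgeR adjusted p = 0.556), from 129 and 20 counts in carcinoma and 105 and 15 in control.

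Genes known to be regulated by FOXO factors went both ways. Of 16 measured, 1 was higher in carcinoma, 3 were lower and 12 did not pass, with a median log2 fold change of −0.38. PDK4, which encodes a brake on glucose oxidation, had −2.91 (SE 0.17, edgeR adjusted p = 0.00189), TXNIP, which encodes a binding partner of thioredoxin, had −1.14 (SE 0.14, adjusted p = 0.00865) and TRIM63, a ubiquitin ligase gene of striated muscle, had −1.76 (SE 0.32, adjusted p = 0.0272). CDKN1A, which encodes the cell cycle inhibitor p21, was the gene that was higher (log2 fold change 1.99, SE 0.40, edgeR adjusted p = 0.0348). PDK4 and TRIM63 are also abundant in striated muscle, whose RNA stood higher in control by the values given above, and the part of muscle in their values was not tested.

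FOXK1, a regulator of glycolysis and autophagy, had a log2 fold change of 0.66 (95% interval 0.019 to 1.30, edgeR adjusted p = 0.166). FOXJ3 had 0.13 (95% interval −0.18 to 0.44, adjusted p = 0.522) and FOXN2 had −0.69 (95% interval −1.07 to −0.32, adjusted p = 0.0408), and FOXN2 alone of these passed the adjusted p, under the fold limit. FOXM1, the forkhead factor of mitosis, was not analysed here. Of 8 measured genes that it is known to regulate, 8 did not pass the test (edgeR, 0 called by DESeq2), with 1 higher and 2 lower in carcinoma at an unadjusted p under 0.05.

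FOXA1 and GATA3, which work with the estrogen receptor in luminal cells, had log2 values of opposite sign, and neither was called. FOXA1 had 14.8 CPM in T1 and 12.5 CPM in T2, against 26.9 CPM in C1 and 22.0 CPM in C2. Both carcinoma values lay below both control values, but the log2 fold change of −0.83 (SE 0.23, 95% interval −1.42 to −0.25, edgeR adjusted p = 0.0805) did not pass. GATA3 had 63.0 CPM in T1 and 69.9 CPM in T2, against 54.3 CPM in C1 and 58.6 CPM in C2 (log2 fold change 0.23, SE 0.13, 95% interval −0.098 to 0.56, edgeR adjusted p = 0.309). Values of GATA3 were thus close in the 4 libraries, and a change of 2-fold in either direction lay outside the interval. The 95% intervals of FOXA1 and GATA3 did not overlap.

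Their partner ESR1, the estrogen receptor gene, had 86.1 CPM in T1 and 76.7 CPM in T2, against 317 CPM in C1 and 280 CPM in C2 (log2 fold change −1.87, SE 0.13, edgeR adjusted p = 0.00259). In the luminal epithelium list 6 of 12 measured genes were lower in carcinoma, 6 did not pass and 0 were higher (edgeR, 1 higher at an unadjusted p under 0.05 and 0 called higher by DESeq2). PRLR, the prolactin receptor gene, had a log2 fold change of −1.68 (SE 0.13, edgeR adjusted p = 0.00291), and ELF5, a factor of secretory alveoli, had −2.48 (SE 0.23, adjusted p = 0.00430). The median of the list was −0.76, and its summed level was 2136 CPM in T1 and 2169 CPM in T2, against 3284 CPM in C1 and 3188 CPM in C2. The receptor genes and ELF5 therefore fell where GATA3 was not called. The list genes that did not pass went both ways. Their log2 fold changes were 0.55 (EHF), 0.39 (SPDEF), 0.22 (KRT19), 0.036 (CDH1), −0.32 (EPCAM) and −0.46 (AGR2).

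Among 8 measured genes of GATA cofactors and related GATA-type zinc fingers, 1 was lower in carcinoma, 7 did not pass and 0 were higher (edgeR, 3 higher at an unadjusted p under 0.05 and 0 called higher by DESeq2), with a median log2 fold change of 0.34. ZFPM2, which encodes a GATA cofactor also known as FOG2, had 66.2 CPM in T1 and 55.3 CPM in T2, against 462 CPM in C1 and 347 CPM in C2 (log2 fold change −2.73, SE 0.20, edgeR adjusted p = 0.00263). Groups of ZFPM2 were wide apart. GATAD2A, a subunit gene of a chromatin repressor complex, had 0.57 (adjusted p = 0.0810), LMO4 had 0.38 (adjusted p = 0.116) and TRPS1, a repressor with a GATA-type finger, had 0.34 (adjusted p = 0.135), all by edgeR.

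In the KLF family 2 of 10 measured genes were lower in carcinoma, 8 did not pass and 0 were higher (edgeR, 1 higher at an unadjusted p under 0.05 and 0 called higher by DESeq2). KLF4 had 1.66 CPM in T1 and 2.97 CPM in T2, against 7.28 CPM in C1 and 10.9 CPM in C2, from 58 and 10 counts in carcinoma and 215 and 47 counts in control. The groups did not overlap in spite of the low counts. KLF4 had a log2 fold change of −2.10 (SE 0.44, 95% interval −3.23 to −0.97, edgeR adjusted p = 0.0399), at rank 251 of 11277 by fall. Within pools, the ratio of carcinoma to control was 0.228 in pool 1 (95% counting interval 0.168 to 0.306) and 0.273 in pool 2 (0.123 to 0.547). The call was lost without T1 (−1.62, adjusted p = 0.153), without C2 (−1.81, adjusted p = 0.0898) and with library totals in place of TMM (−2.08, adjusted p = 0.0735), and it held with the pool as a block (−2.08, adjusted p = 1.90e-15).

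KLF11, which is induced by TGF-beta and represses growth-promoting genes, had nearly equal ratios in the pools. It had 10.6 CPM in T1 and 12.2 CPM in T2, against 21.7 CPM in C1 and 24.6 CPM in C2. Both pools gave a ratio close to a halving, 0.490 in pool 1 (95% counting interval 0.430 to 0.558) and 0.496 in pool 2 (0.337 to 0.718). The log2 fold change was −1.03 (SE 0.22, 95% interval −1.60 to −0.46, edgeR adjusted p = 0.0436). KLF11 lay next to both limits of the rule, and its call was lost without any single library, at adjusted p = 0.193 without T1, 0.0989 without T2, 0.150 without C1 and 0.157 without C2, and also with library totals in place of TMM (adjusted p = 0.0908).

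KLF8, a repressor linked to cell motility, had a difference beyond counting error in pool 1 and none detectable in pool 2. It had 2.12 CPM in T1 and 3.57 CPM in T2, against 6.23 CPM in C1 and 3.71 CPM in C2. The values of pool 2 rest on 12 counts in carcinoma and 16 in control, so that its ratio of 0.962 had a counting interval of 0.415 to 2.17, while the ratio in pool 1 was 0.340 (0.256 to 0.447). The 2 intervals overlapped slightly, and the difference between the pools was not tested. The log2 fold change was −0.99 (SE 0.44, edgeR adjusted p = 0.221), and with the pool as a block it was −1.32 (adjusted p = 5.75e-07) and KLF8 was called.

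Some endothelial genes stood lower beside KLF4. In the blood endothelium list 5 of 11 measured genes were lower in carcinoma, 6 did not pass and 0 were higher (edgeR, 0 higher at an unadjusted p under 0.05 and 0 called higher by DESeq2), at a median log2 fold change of −0.71 and a summed level of 445 CPM in T1 and 437 CPM in T2, against 828 CPM in C1 and 825 CPM in C2. PECAM1, an adhesion gene of endothelium, had −1.72 (SE 0.15, edgeR adjusted p = 0.00374), and CDH5, its cadherin gene, had −1.51 (SE 0.19, adjusted p = 0.00906). KDR, the VEGF receptor gene, had a log2 fold change of 0.035 (adjusted p = 0.865), and was not called. The other genes of this list that did not pass had 0.48 (PLVAP), 0.30 (FLT1), 0.079 (NOS3), −0.11 (ENG) and −0.71 (TEK). In the lymphatic endothelium list 5 of 7 were lower, with a median of −2.19 and sums of 211 CPM in T1 and 202 CPM in T2, against 1152 CPM in C1 and 956 CPM in C2. No gene of either list was at 0 in any library. The part of endothelial cells in the KLF4 value was not tested.

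The other KLF genes ranged from −0.59 to 0.48. KLF6, an early response factor, had 15.2 CPM in T1 and 33.6 CPM in T2, against 24.1 CPM in C1 and 47.5 CPM in C2, with overlapping groups that followed the pools (log2 fold change −0.59, 95% interval −1.89 to 0.72, edgeR adjusted p = 0.503). KLF6 was described after its values had been seen. KLF9, which is induced by glucocorticoid and progesterone, had a log2 fold change of −0.50 (95% interval −0.81 to −0.19, edgeR adjusted p = 0.0566), and KLF5, a factor of proliferating epithelium, had 0.48 (95% interval 0.10 to 0.85, adjusted p = 0.106). KLF10 (0.17), KLF12 (0.093), KLF7 (−0.059) and KLF3 (−0.075) lay near 0, with intervals that stayed within a doubling and a halving.

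The SP genes were level or slightly lower, with 3 of 3 not called (edgeR, 0 higher and 2 lower at an unadjusted p under 0.05, 0 called by DESeq2). SP1 had 237 CPM in T1 and 217 CPM in T2, against 239 CPM in C1 and 221 CPM in C2, and its log2 fold change was −0.018 (95% interval −0.31 to 0.28, edgeR adjusted p = 0.935). The tissues were thus nearest to each other for this gene, described after its values had been seen. SP3 had −0.34 (95% interval −0.67 to −0.0075, edgeR adjusted p = 0.168). SP4, a factor of neurons that is also made elsewhere, had −0.60 (95% interval −0.95 to −0.25, adjusted p = 0.0486), past the adjusted p but not the fold limit. Without a fold limit, 10 members passed the adjusted p (5 higher and 5 lower, or 32.3%), against 13.9% of all genes (6.93% higher and 6.96% lower). They were SOX6, SOX5, SOX9, FOXI1 and FOXO3 on the higher side and KLF4, KLF11, FOXP2, FOXN2 and SP4 on the lower side. By DESeq2 all of them but SOX9 (adjusted p = 0.101) passed the adjusted p. By edgeR with library totals in place of TMM, SOX9 (0.0652), FOXO3 (0.0681), KLF4 (0.0735) and KLF11 (0.0908) did not pass it. With RLE normalization in place of TMM, SOX9 (0.0575) did not pass it. With at least 10 counts in every library, FOXP2 (0.0507), SP4 (0.0558) and SOX9 (0.0590) did not pass it. These checks do not show how far the 10 genes rest on a single library. Without T1 the log2 fold change was 0.74 for SOX5, 0.58 for FOXO3 and 0.47 for SOX9. On the lower side it was −0.98 for FOXP2, −0.87 for FOXN2 and −0.66 for SP4. With the pool as a block and no fold limit 25 members passed (14 higher and 11 lower), against 64.1% of all genes (33.8% higher and 30.3% lower).

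The ratio of carcinoma to control had the same sign in both pools for 30 of 31 genes, the exception being SOX4, against 84.5% of all genes. Over the 31 genes the log2 ratios of the pools had a Pearson correlation of 0.951. This describes the genes, which are not independent replicates, and within each pool carcinoma and control came from the same dogs.

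**Figure D4:**
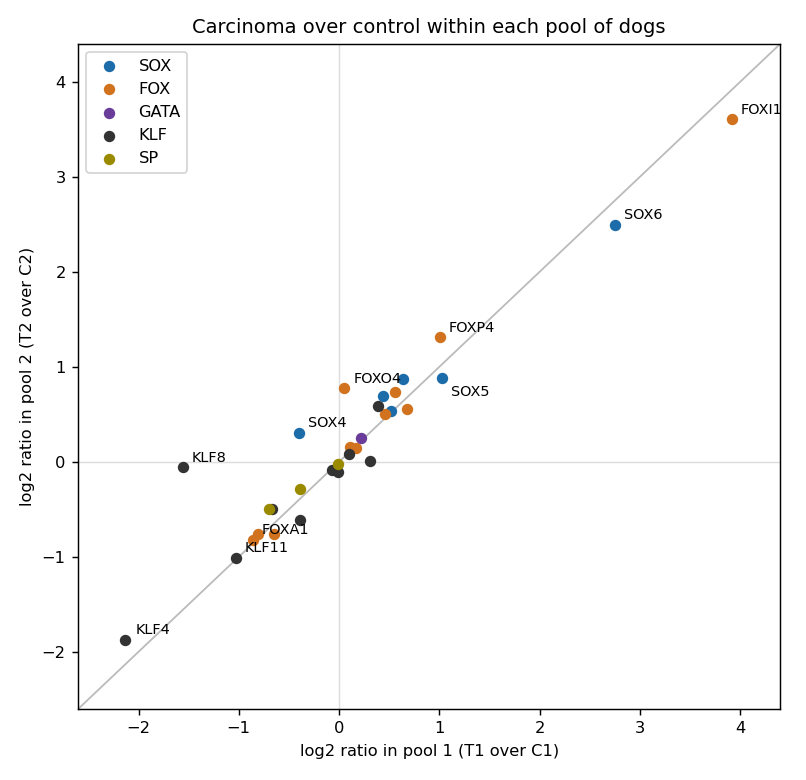
Carcinoma to control log2 ratios, with pool 1 (T1 over C1) on the x axis and pool 2 (T2 over C2) on the y axis, 1 point for each of the 31 genes colored by family and a diagonal line of equal ratios. FOXI1 (3.92 and 3.61) and SOX6 (2.75 and 2.50) lie at the upper end, KLF4 (−2.13 and −1.87) at the lower end and KLF8 (−1.56 and −0.056) away from the line.

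The level itself differed between the pools for some members. Pool 2 was above pool 1 by at least 0.5 on the log2 scale in both tissues for 5 genes (SOX10, SOX13, FOXP4, KLF4 and KLF6), or 16.1% of the members against 13.0% of all genes, and below it by as much for 0 members against 2.12% of all genes. SOX10 had the largest such offset in carcinoma, 1.19 in carcinoma and 0.94 in control, followed by KLF6 with 1.15 and 0.98 and FOXP4 with 1.11 and 0.80. An offset counts as error in the test without a block, and SOX10, KLF6 and FOXP4 had the 3 widest 95% intervals of the 31 genes. The pools differed in depth and, by the study's account, in mean age, their dogs were of different breeds, and these cannot be told apart.

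**Figure D5:**
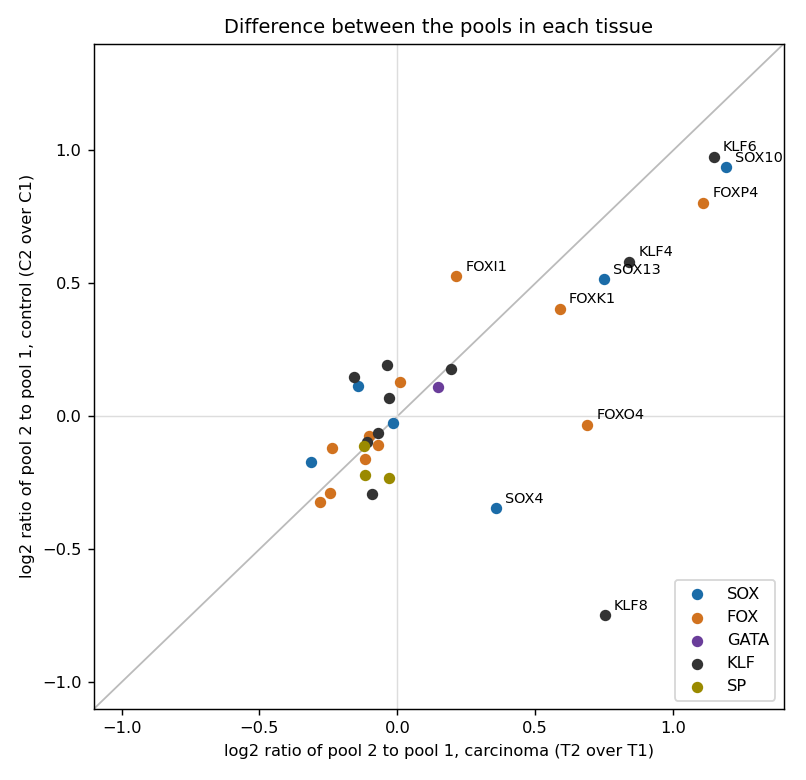
Log2 ratio of pool 2 to pool 1 in carcinoma (T2 over T1, x axis) and in control (C2 over C1, y axis), with 1 point for each of the 31 genes colored by family and a diagonal line of equal ratios. Most genes lie near 0, while SOX10 (1.19 and 0.94), KLF6 (1.15 and 0.98) and FOXP4 (1.11 and 0.80) lie together at the upper right and KLF8 (0.75 and −0.75) lies below the line.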

How the data were processed

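Each of the 4 deposited tables holds whole-number counts per gene for 1 pool, without normalization. The paper's methods name TopHat2, HTSeq with default settings and DESeq2, whereas the submitters' processing notes list STAR and featureCounts beside FastQC and DESeq2. The table layout is that of featureCounts. Libraries were made with a stranded kit. Strand setting of the deposited counts and genome build: not given in the sources used here. Reads of overlapping antisense genes may therefore be mixed, and no coordinates are printed. The other deposited column, used only as a check, is the length per gene in bases that the authors' counting gave. All 31 members matched a symbol in the RefSeq table of another assembly, and the length was a median of 0.903 times the RefSeq span, introns included (range 0.398 to 22.5), so levels were compared between libraries only.

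All 11277 genes were fitted with edgeR 4.0.16 under R 4.3.3 (low counts by filterByExpr, TMM, quasi-likelihood test), and DESeq2 1.42.0 served as an alternative. CPM were scaled by TMM, with factors of 0.984 (T1), 1.04 (T2), 0.913 (C1) and 1.07 (C2). Each SE is the size of the log2 value over the root of its F statistic. An exact permutation test (two-sided) of 2 libraries against 2 reaches 0.333 at the lowest, so calls rest on the model across genes. The p-values of the main test measure the spread between these pools, with part of that spread borrowed from other genes. It has 2 residual degrees of freedom a gene, of 5.04 in total. The main test has no block. By the paper, libraries with the same number shared their dogs, and across genes the deviations of such pairs had a correlation of 0.782. With the pool number as a block the common dispersion was 0.00216, against 0.0508 without. That fit leaves 1 residual degree of freedom a gene and borrows nearly all its spread from other genes (217 degrees of freedom in total, against 5.04 without the block), so its p-values are very small. Counting intervals are exact conditional binomial and cover counting error only. Replicates differed by more than counting error (chi-square per degree of freedom 31.7 in carcinoma and 46.0 in control). Figures were drawn with matplotlib 3.10.9.

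The members and the related gene lists were chosen with earlier results of these data known. Values per library are given by rule for members called with or without the block, for SOX5, SOX6, SOX9, GATA3 and FOXA1, and for members whose groups do not overlap and whose log2 value is 0.7 or more in size, and up to 4 genes of a list are named by smallest adjusted p. Other genes described in full (SOX10, SOX4, FOXO3, KLF6, SP1, CDH1 and KDR) were picked after their values had been seen, as were list genes named beyond the first 4.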

Additional observations from a re-analysis of the deposited data

How the results depend on the processing

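Of 31 members, SOX6 and FOXI1 were called higher in all 13 alternatives (12 chosen in advance and the block without a fold limit added later). The number called was 4 in the main analysis, 4 by DESeq2, 6 with the replicate block and 2 with library totals in place of TMM, where 0 were lower (edgeR, 8 at an unadjusted p under 0.05, 2 by DESeq2) and the KLF family had 0. With the block the FOX family had 2 calls, against 1, and a median of 0.20, against 0.37. Without a fold limit 10 were called (5 higher, 5 lower, with SOX 3, FOX 4 and SP 1), and with the block and no fold limit 25 (14 higher, 11 lower, with SOX 6, FOX 9, GATA 1, KLF 7 and SP 2, and 118 genes of the related lists against 55). With at least 10 counts in every library 37 list genes were called. Leaving out 1 library at a time gave 2 to 4 members called, 2 to 3 higher and 0 to 1 lower (0 without T1 or C2), with 1 to 2 in the SOX, 1 to 2 in the FOX and 0 to 1 in the KLF family, and family medians of 0.46 to 0.96 (SOX), 0.21 to 0.40 (FOX, lowest without T2), −0.36 to −0.070 (KLF) and −0.44 to −0.27 (SP). Signs turned for SP1 (0.014 with library totals, 0.040 without T2, −0.13 to 0.040 over the libraries left out), KLF12 (−0.0085 without T1, −0.0085 to 0.15), SOX4 (0.068 without T1 and 0.073 without C1, −0.25 to 0.073) and SOX10 (−0.073 without T2, −0.073 to 1.11), none of which was called. The replicate block added FOXP4 and KLF8 and changed no other call under the fold limit. Without a filter on low counts the results were identical, since all genes passed it. Causes of these shifts were not tested. Counts in T2 and C2 limit KLF4, KLF8, FOXO4 and FOXI1 most.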

Other observations

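Lists of further cell types in which these factors act were measured in the same way. In the T cell list 4 of 9 measured genes were lower in carcinoma and 5 did not pass, with a median log2 fold change of −1.44. By DESeq2 2 of these T cell genes were lower, with the block 8, and at an unadjusted p under 0.05 all 9. In the mast cell list 3 of 6 were lower and 3 did not pass, with a median of −1.46. CPA3, a protease gene of mast cell granules, had 4.12 CPM in T1 and 1.49 CPM in T2, against 34.0 CPM in C1 and 22.7 CPM in C2 (log2 fold change −3.13, SE 0.47, edgeR adjusted p = 0.0153). KIT, a receptor gene of mast cells that luminal progenitors also express, had a log2 fold change of 0.19 (adjusted p = 0.318). In the striated muscle list 11 of 13 were lower, with a median of −5.41 that includes 4 genes at 0 in at least 1 library.

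Apart from the luminal and endothelial lists above, calls were few among epithelial and stromal lists. In the basal epithelium list 8 of 8 did not pass (edgeR, 2 higher and 3 lower at an unadjusted p under 0.05, and 1 in each direction by DESeq2), and with the block 2 were higher and 1 was lower. In the smooth muscle and pericyte list 9 of 9 did not pass (edgeR, 1 higher and 2 lower at an unadjusted p under 0.05, 0 by DESeq2), and in the adipocyte list 5 of 5 did not pass (edgeR, 0 higher and 1 lower at an unadjusted p under 0.05, 0 by DESeq2). With the block, 1 gene was higher in each of these lists. Of the epidermis and hair follicle list 2 genes were measured and 1 was higher, DSG3, a desmosome gene of stratified epithelium (log2 fold change 1.67, SE 0.15, edgeR adjusted p = 0.00439). Of the Schwann cell and nerve list 4 were measured and 1 was lower, NGFR, which encodes the low-affinity neurotrophin receptor and had 0.544 CPM in T1 and 0 counts in T2, against 6.74 CPM in C1 and 13.0 CPM in C2 (edgeR adjusted p = 0.0190). By DESeq2 and with the block 2 of the 4 were lower, while SOX10, known from the same cells, was not called.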
